A study of Mus musculus with 12 samples.

Results

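The DNA replication machinery was examined in satellite cells, which serve muscle as its stem cells, through 40 listed genes that cover origin licensing, the replicative helicase, the polymerases, the sliding clamp, single-strand binding, the joining of lagging-strand fragments and the supply of deoxynucleotides. Its members are all probe sets that the platform annotation gives to exactly 1 of these genes. This left 39 genes with 71 probe sets, of 12393 genes with 20380 probe sets on the Mouse 430A array, and Gins2 had none. The 71 probe sets were taken whole, whatever their signal. Over all arrays, ASC included, 60 had a mean signal of at least 47.0, and the other 11 lay under it. This bound is 0.2 of the common array mean used below. For each gene the leading probe set is the one with the highest mean log2 signal over the arrays of all groups, ASC included. It stood for the gene wherever only 1 value is given, and 22 of the 39 genes had further probe sets.

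The cells were sorted from hind limb muscles, the mice (C57BL/6J) were 8 to 12 weeks old, and each of 3 groups has 4 arrays. The activated group (ASC) consists of cells bound by the antibody SM/C-2.6, which marks satellite cells, and grown for 4 days in DMEM with 20% FCS and 2.5 ng/ml bFGF, over 99% of them MyoD(+) per the labels. Its quiescent counterpart (QSC) was bound by the same antibody and taken directly after the sort, with over 97% Pax7(+) cells. The non-myogenic cells (NMC), negative for SM/C-2.6 and for CD45, were also taken directly after sorting and held under 1% myogenic cells. Activation, 4 days of culture and the medium distinguish ASC from QSC together, so their parts cannot be told apart. Of the 12 arrays, 5 were labelled with a small-sample kit (replicates 1 and 2 of ASC and QSC, and replicate 1 of NMC) and 7 with a two-cycle kit. The labels do not say that replicates came from separate animals, so that p-values measure only how far these samples spread, which may be technical.

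Chromosomal DNA is copied in a fixed order of steps. The origin recognition complex marks start sites, Cdc6 and Cdt1 load the ring of Mcm2 to Mcm7 there before S phase, and Cdc45 and the GINS complex then turn the ring into an active helicase. Primase with DNA polymerase alpha lays down primers, polymerases delta and epsilon extend them on a clamp of PCNA, and Fen1 and Lig1 join the fragments of the lagging strand. Many of these genes are transcribed under E2F factors as cells leave quiescence, and satellite cells of uninjured adult muscle seldom divide until injury or culture activates them.

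Replication genes stood higher in activated cells across every step of this sequence. All 39 leading probe sets were called higher in ASC than in QSC, by 0.56 to 4.44 on the log2 scale with a median of 1.62, and 33 of them were at least 2-fold, 18 at least 4-fold and 4 at least 8-fold higher. These are limma differences of log2(scaled signal + 14.7), given below as difference ± standard error with n = 4 arrays per group, called below an adjusted p of 0.05 (Benjamini-Hochberg) over all 20380 probe sets, of which 51.0% were called, 19.7% higher and 31.3% lower in ASC. The leading probe sets were chosen with the ASC arrays included, which can favour probe sets that are high in ASC. Over all 71 member probe sets 62 were higher, 2 lower and 7 not called, with a median difference of 1.61 against -0.19 over all probe sets. On 57 of the 71 every ASC array lay above every QSC array, which held for 15.5% of all probe sets. The 2 lower ones, further probe sets of Pola2 and Tyms, were among the 11 dim ones, of which 2 were higher and 7 not called. That bound also takes in the ASC arrays, which favours probe sets high in ASC. Cdc6 passed it with means of 20.7 in QSC and 37.6 in NMC. The 2 lower ones had means of 36.1 (Pola2) and 8.35 (Tyms) in QSC and 28.5 and 6.07 in NMC. With the replicate number as a block 61 were higher and 1 lower. In bulk RNA, more cells with a transcript and more transcript per cell cannot be told apart.

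Against the non-myogenic cells the leading probe sets were higher in ASC as well. Of the 71 probe sets 62 were called higher in ASC than in NMC and 1 lower, beside 21.9% and 26.9% of all probe sets (48.8% called in all), and the median difference was 2.47 (all probe sets, -0.08). All 39 leading probe sets were higher, by 0.84 to 5.17, and each had all 4 ASC arrays above all 4 NMC arrays, as 19.3% of all probe sets did. This comparison shares the ASC arrays with the first one and is no separate evidence on them. QSC and NMC lay closer together: 29 member probe sets were called higher in QSC and 0 lower, with 2 lower at an unadjusted p under 0.05, beside 19.2% of all probe sets called higher in QSC and 35.2% called in either direction. Their median difference was 0.48, against 0.11 over all probe sets. That split changed with the scaling of the arrays: with the deposited signals left unscaled 12 were called higher and 2 lower, where 7.11% of all probe sets were called higher.

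**Figure D1:**
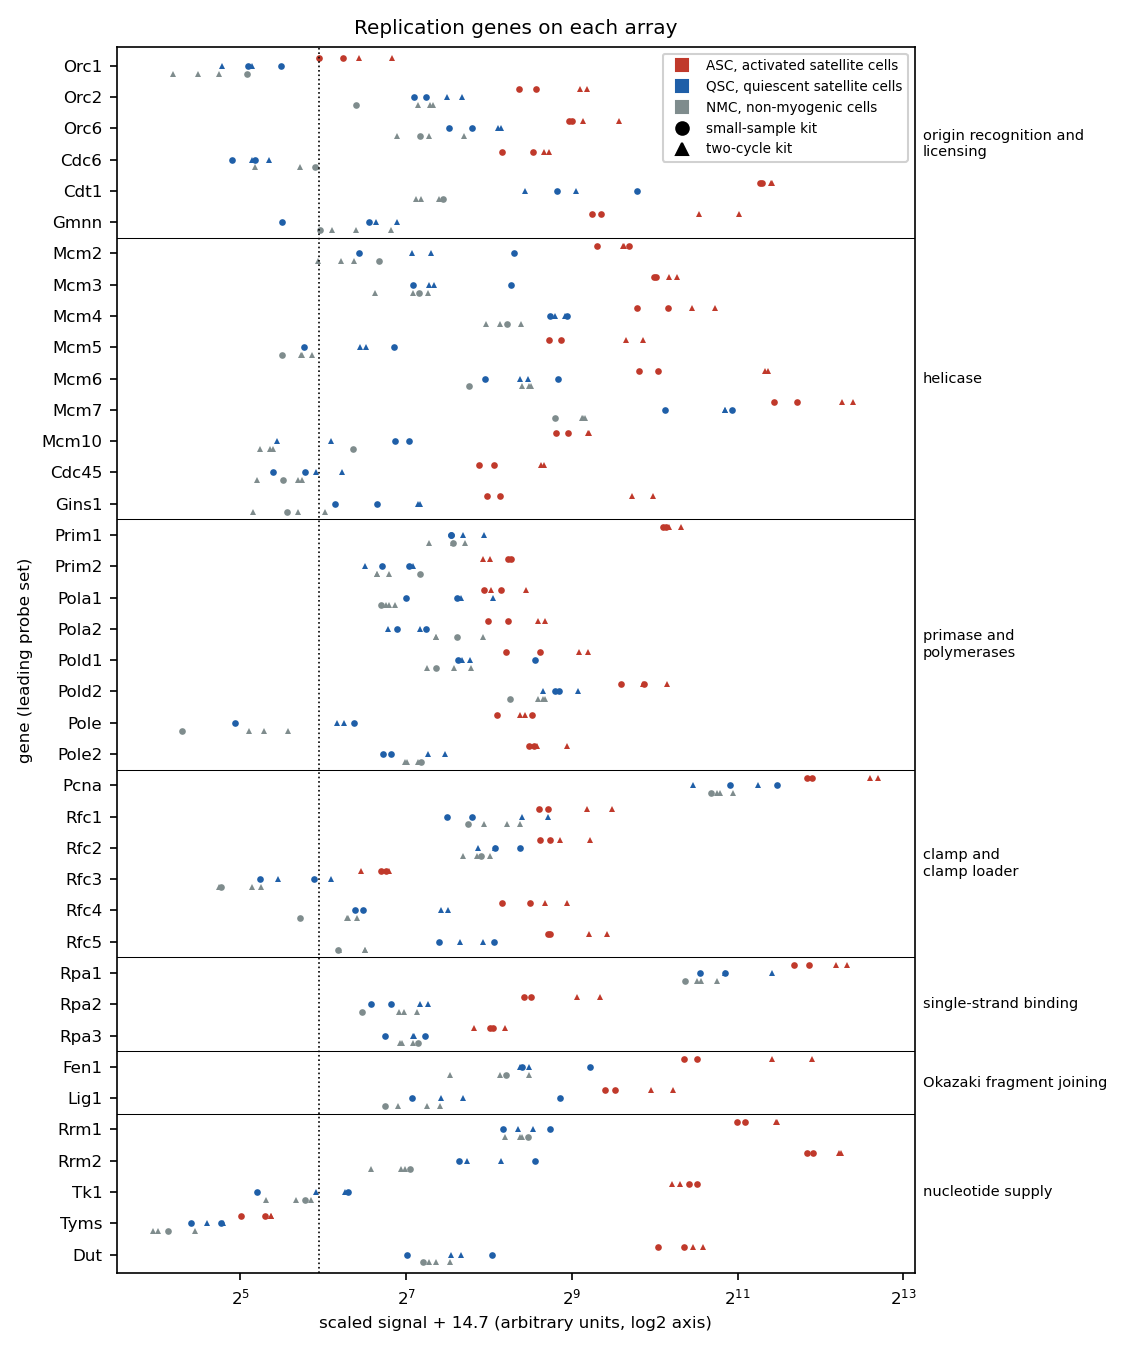
Scaled signal plus 14.7 (arbitrary units, log2 axis) of the leading probe set of each of 39 replication genes, 1 point per array, for ASC (red), QSC (blue) and NMC (grey), with circles for the small-sample kit and triangles for the two-cycle kit. The dotted line marks a scaled signal of 47.0. All red points lie to the right of the blue and grey ones except in the rows of Pola1, Pold1 and Rfc1, where ASC and QSC overlap, and the position of different genes along the axis is not comparable because probe sets differ in response.

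The promoters of these genes are shown because the leading probe sets, chosen with the ASC arrays included, were all called in 1 direction. RefSeq promoter windows (build GRCm38.p6, 250 bases before to 50 after each annotated start) were found for 33 of the 40 genes, with 39 windows, by symbol. Gmnn, Mcm4, Gins1, Gins2, Prim2, Pole and Rfc2 were not among them. The letters of an E2F site (TTCCCGC or TTCGCGC or TTGCCGC or TTGGCGC, on either strand) stood in the windows of 20 of the 33 genes, or 60.6%, against 13.7% of 17492 protein-coding genes and 10.9% of all 27025 genes of the same table. Counted by window, the shares were 56.4% of members and 12.1% of protein-coding windows, and their median GC contents were 57.3% and 56.3%. CCAAT, the letters bound by NF-Y, occurred in 63.6% of the member genes and 42.3% of protein-coding genes, while TTTGAA, the CHR element of many late cell-cycle genes, occurred in 12.1% and 18.5%. A letter match is a description and not a binding site.

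Below are the 70 bases directly before the start of each member gene with an E2F match lying wholly in that stretch, 5′ to 3′ on the gene's strand, with matches in capitals. Pcna and Tk1 follow as genes without one in their windows. The stretches lie at chr4:108579384-108579453 (Orc1, plus strand), chr1:128359706-128359775 (Mcm6, minus), chr10:128015145-128015214 (Prim1, plus), chr5:151651209-151651278 (Rfc3, minus) and chr4:132768290-132768359 (Rpa2, plus). The others are chr6:8259142-8259211 (Rpa3, minus), chr19:10203922-10203991 (Fen1, minus, 1 of its 2 windows), chr7:102441625-102441694 (Rrm1, plus), chr2:132253181-132253250 (Pcna, minus) and chr11:117826015-117826084 (Tk1, minus).
Orc1: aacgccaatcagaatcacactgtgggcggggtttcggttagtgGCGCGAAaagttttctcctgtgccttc
Mcm6: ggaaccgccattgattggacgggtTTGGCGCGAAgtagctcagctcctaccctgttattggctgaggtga
Prim1: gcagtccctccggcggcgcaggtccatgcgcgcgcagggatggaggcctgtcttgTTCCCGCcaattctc
Rfc3: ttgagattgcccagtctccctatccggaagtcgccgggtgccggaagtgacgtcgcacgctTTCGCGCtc
Rpa2: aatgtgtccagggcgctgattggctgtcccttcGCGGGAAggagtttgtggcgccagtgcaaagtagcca
Rpa3: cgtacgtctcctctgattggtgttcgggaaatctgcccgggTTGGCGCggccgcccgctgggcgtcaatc
Fen1: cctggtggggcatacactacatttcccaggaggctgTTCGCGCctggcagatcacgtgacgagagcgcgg
Rrm1: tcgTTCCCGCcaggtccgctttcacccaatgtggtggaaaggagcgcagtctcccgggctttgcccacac
Pcna: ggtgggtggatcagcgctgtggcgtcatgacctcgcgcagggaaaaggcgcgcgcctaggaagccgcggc
Tk1: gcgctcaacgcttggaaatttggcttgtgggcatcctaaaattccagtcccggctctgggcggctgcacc
The matches began at -67 in Rrm1, -46 and -43 in Mcm6, -37 in Rpa2, -34 in Fen1, -29 in Rpa3, -27 in Orc1, -15 in Prim1 and -9 in Rfc3, counted back from the start. The pair in Mcm6 overlaps, 1 on each strand, and the match in Prim1 shares its last base with a CCAAT. Genes with a match had a median ASC minus QSC difference of 1.95 (20 genes, 0.56 to 4.04) and genes without one 1.35 (13 genes, 0.62 to 4.44), ranges that overlap almost wholly. Tk1, the gene with the largest difference of all leading probe sets, had none of the 3 motifs in its window.

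**Figure D2:**
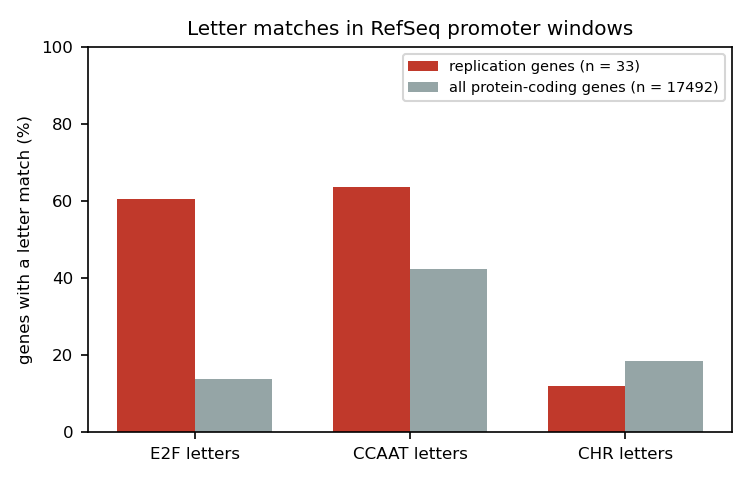
Share of genes (%) whose RefSeq promoter windows hold the letters of an E2F site, a CCAAT box or a CHR element on either strand, for 33 replication genes (red) and 17492 protein-coding genes (grey). The red bar is the taller for E2F (60.6% against 13.7%) and for CCAAT (63.6% against 42.3%), and the shorter for CHR (12.1% against 18.5%).

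Among the licensing genes, all 6 leading probe sets were higher in ASC, with medians of 1.87 over QSC and 2.43 over NMC. Cdc6, the ATPase that recruits the helicase ring to origins, had scaled signals of 271, 356, 390.3 and 409 on the ASC arrays, against 15.1, 21.3, 20.7 and 25.8 on the QSC arrays and 44.8, 38.2, 21.6 and 45.9 on the NMC arrays. All ASC arrays were far above the rest, and QSC and NMC overlapped, with QSC the lower of them on average. Its ASC minus QSC difference was 3.38 ± 0.19 (adjusted p = 1.9e-08) on the log2 scale. Cdt1, its partner in loading, showed another order, with 2499, 2447, 2687 and 2723 on the ASC arrays, against 436, 864, 517 and 331 on the QSC arrays and 159.9, 125, 154 and 131 on the NMC arrays, so that the groups were fully separated in the order ASC, QSC, NMC. The difference was 2.32 ± 0.22 (adjusted p = 1.9e-06) for ASC over QSC and 1.68 ± 0.23 (adjusted p = 7.8e-05) for QSC over NMC. A further Cdt1 probe set ran the same way, at 2.96 and 1.29 for these differences, and another had signals of at most 1.97 on all arrays and was not called.

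Gmnn encodes geminin, the inhibitor that binds Cdt1 once S phase has begun, and it had 639, 590.4, 2051 and 1463 on the ASC arrays, against 30.7, 78.9, 104 and 84.7 on the QSC arrays and 47.8, 54.4, 98.2 and 69.3 on the NMC arrays. The ASC arrays were high throughout and the two-cycle ones the highest, while QSC and NMC overlapped. ASC exceeded QSC by 3.64 ± 0.26 (adjusted p = 1.5e-07), and QSC differed from NMC by 0.31 ± 0.27 (adjusted p = 0.41). The subunits of the origin recognition complex moved less: Orc1, Orc2 and Orc6 were higher in ASC than in QSC by 1.23, 1.42 and 1.27, with adjusted p of 6.5e-04, 1.9e-06 and 6.4e-05. Orc1, the cell-cycle regulated subunit, was dim, at 46.9 to 98.9 in ASC, 12.8 to 30.4 in QSC and 3.47 to 19.0 in NMC. A dim further probe set of Orc2 was not called in any comparison.

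The leading probe sets of the helicase genes were higher in ASC throughout. All 9 leading probe sets were higher in ASC than in QSC, with a median of 2.29, and 13 of the 20 helicase probe sets (65.0%) were higher in QSC than in NMC, with 0 lower, beside 19.2% of all probe sets. Mcm5, 1 of the 6 subunits of the ring, had 407, 451, 791 and 916 on the ASC arrays, against 39.7, 101, 72.5 and 77.0 on the QSC arrays and 30.6, 38.9, 43.4 and 38.5 on the NMC arrays. ASC arrays were separate from all others, and QSC replicate 1 lay within the NMC range. The differences were 2.88 ± 0.23 (adjusted p = 3.3e-07) for ASC over QSC and 0.81 ± 0.23 (adjusted p = 0.016) for QSC over NMC. Mcm7, another ring subunit, had 3359, 2769, 4881 and 5365 on the ASC arrays, against 1097, 1944, 1833 and 1832 on the QSC arrays and 428, 542, 548 and 556 on the NMC arrays. Its 3 groups did not overlap at all, with 1.26 ± 0.18 (adjusted p = 5.8e-05) for ASC over QSC and 1.76 ± 0.18 (adjusted p = 7.9e-06) for QSC over NMC, and the second value is the highest of that comparison among the leading probe sets. The other 3 Mcm7 probe sets had the same calls, at 1.23 to 1.66 for QSC over NMC.

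Mcm2, Mcm3, Mcm4 and Mcm6 completed the ring, at 2.29, 2.62, 1.43 and 2.23 for ASC over QSC. Mcm2 had 71.4, 300.0, 119 and 142 on the QSC arrays, where replicate 2 was the highest, as it was for Mcm3 (121, 293, 146 and 139.8). On the ASC arrays Mcm2 had 814, 615, 778 and 769 and Mcm3 1018, 999, 1214 and 1139, all above QSC replicate 2. Of the further subunits, Cdc45 rose by 2.48 ± 0.18 (adjusted p = 1.6e-07) and Gins1, a GINS subunit, by 2.18 ± 0.29 (adjusted p = 4.2e-05) over QSC. Gins1 had 266, 237, 830.0 and 995 on ASC arrays, with the two-cycle arrays high, against 56.1, 85.4, 127 and 129 on QSC and 32.6, 37.2, 50.5 and 21.0 on NMC arrays. Mcm10, needed to start the helicase, was higher in ASC by 2.68 ± 0.27 (adjusted p = 3.3e-06), while its dim second probe set was not called there (-0.46, adjusted p = 0.10). Mcm3 also had a dim probe set with no call.

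Primase and polymerase genes gave smaller differences, with a median of 1.31 over the 8 leading probe sets for ASC over QSC and 1.41 for ASC over NMC. Prim1, the catalytic primase subunit, stood out among them with 1109, 1078, 1139 and 1258 on the ASC arrays, against 172, 172, 192 and 231 on the QSC arrays and 174, 194, 175 and 139.8 on the NMC arrays. ASC arrays formed a narrow high group, QSC and NMC overlapped, and the ASC minus QSC difference was 2.50 ± 0.14 (adjusted p = 1.9e-08). Pole, the catalytic subunit of polymerase epsilon on the leading strand, was higher in ASC by 2.43 ± 0.27 (adjusted p = 8.8e-06), with 260.0, 352, 332 and 316 in ASC against 15.8, 68.0, 61.1 and 56.9 in QSC. On leading probe sets, the catalytic subunits of the other 2 polymerases had the smallest differences of the class. Pola1, of polymerase alpha, had 229.8, 268, 246 and 333 on the ASC arrays, against 113, 180.4, 250.5 and 188 on the QSC arrays and 89.3, 93.4, 102 and 96.4 on the NMC arrays, so that QSC replicate 3 lay within the ASC range.

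Pola1 was higher in ASC than in QSC by 0.56 ± 0.18 (adjusted p = 0.018), a call lost without QSC replicate 1 (adjusted p = 0.059), ASC replicate 2 (0.056) or ASC replicate 4 (0.056), and within each kit (0.74 on small-sample and 0.38 on two-cycle arrays, adjusted p = 0.094 and 0.19). The same gene was higher in QSC than in NMC by 0.88 ± 0.18 (adjusted p = 0.0021), with no overlap of arrays. Pold1, of polymerase delta, differed by 0.86 ± 0.25 (adjusted p = 0.011) between ASC and QSC, and 1 QSC array lay above 1 ASC array. Within kits it was 0.32 on small-sample arrays, where the call was lost (adjusted p = 0.54), and 1.41 on two-cycle arrays. A second probe set of Pold1 was higher in ASC than in QSC by 1.25 ± 0.24 (adjusted p = 6.8e-04), with no overlap of arrays. Prim2, Pola2, Pold2 and Pole2, the regulatory subunits, were higher in ASC than in QSC by 1.27, 1.35, 1.03 and 1.56. The leading Pola2 probe set had a negative QSC minus NMC difference of -0.51 ± 0.20 (adjusted p = 0.060). Its other probe set, at 8.47 to 15.9 in ASC, 25.8 to 52.0 in QSC and 14.7 to 44.6 in NMC, was called lower in ASC than in QSC (-0.85) and than in NMC (-0.68), opposite to the leading one.

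**Figure D3:**
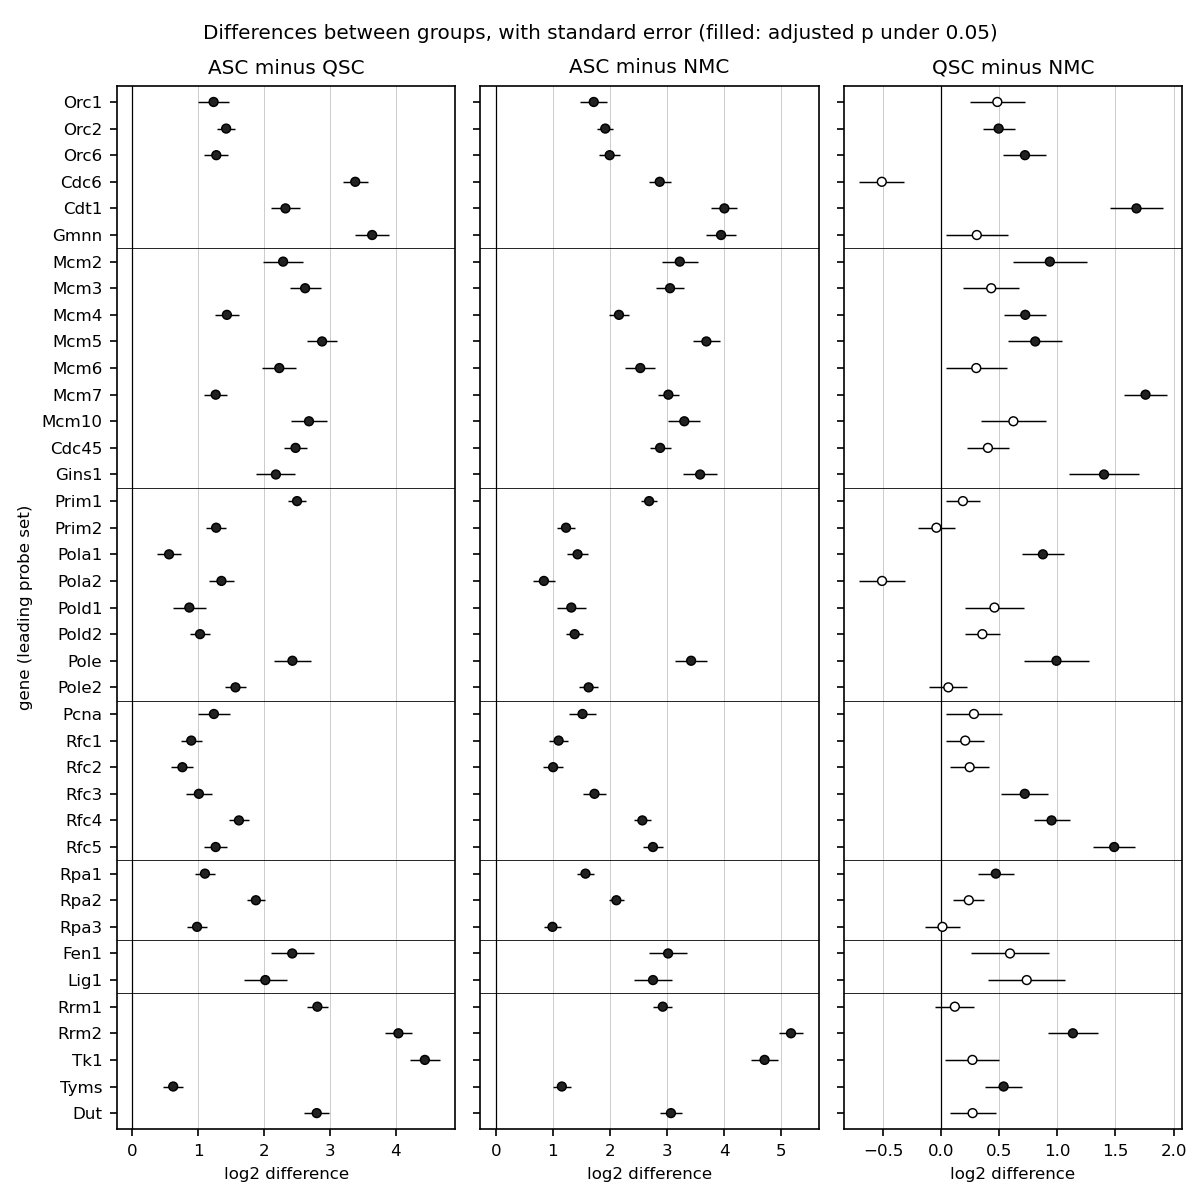
Log2 difference with its standard error for the leading probe set of each of 39 replication genes, for ASC minus QSC (left), ASC minus NMC (middle) and QSC minus NMC (right), 4 arrays per group, with filled points for an adjusted p under 0.05. All points of the left and middle panels are filled and lie right of 0, between 0.56 and 4.44 and between 0.84 and 5.17, while 16 are filled in the right panel, between 0.47 and 1.76.

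Pcna, the sliding clamp, was higher in ASC than in QSC by 1.24 ± 0.24 (adjusted p = 7.2e-04), with scaled signals of 3652, 3812, 6624 and 6166 on the ASC arrays, against 1912, 2826, 1391 and 2411 on the QSC arrays and 1618, 1759, 1702 and 1959 on the NMC arrays. The ASC arrays were the highest, and the QSC range took in the whole NMC range, so that QSC and NMC were not set apart (0.28 ± 0.24, adjusted p = 0.41). Of the 5 subunits of the clamp loader, Rfc4 had the largest ASC minus QSC difference among leading probe sets, 1.62 ± 0.15 (adjusted p = 1.6e-06), and Rfc2 the smallest, 0.76 ± 0.17 (adjusted p = 0.0019). A further probe set of Rfc3 differed by 2.26 ± 0.26 (adjusted p = 8.9e-06). Rfc5 divided the 3 groups without overlap, with 405, 412, 577 and 672 on the ASC arrays, against 154, 252, 229 and 185 on the QSC arrays and 57.5, 75.9, 76.2 and 58.2 on the NMC arrays. It was higher by 1.26 in ASC than in QSC and by 1.49 ± 0.18 (adjusted p = 3.5e-05) in QSC than in NMC. Rfc4 and Rfc3 were also higher in QSC than in NMC, by 0.95 and 0.72, while Rfc1, the large subunit, and Rfc2 were not called (0.21 and 0.24, adjusted p = 0.37 and 0.29).

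The 3 genes of replication protein A, which coats single-stranded DNA, were higher in ASC than in QSC by 1.10 ± 0.15 (Rpa1), 1.87 ± 0.13 (Rpa2) and 0.98 ± 0.15 (Rpa3), and none of these arrays overlapped. Rpa3 had 251, 244, 278 and 211 in ASC, against 92.2, 135, 122 and 121 in QSC and 126, 121, 107 and 109 in NMC, with QSC and NMC intermixed. In Okazaki fragment joining, the flap nuclease gene Fen1 had 1292, 1439, 3792 and 2712 on the ASC arrays, against 322, 580.0, 342 and 316 on the QSC arrays and 280.4, 266, 170.2 and 344 on the NMC arrays. Its ASC values fell into a high two-cycle pair and a lower small-sample pair, all above the other groups, and the difference from QSC was 2.43 ± 0.33 (adjusted p = 4.1e-05). The second Fen1 probe set had 408, 483, 510 and 472 on the ASC arrays, without such a split by kit. Lig1, the DNA ligase of replication, was higher by 2.02 ± 0.33 (adjusted p = 1.9e-04), and its QSC arrays had 119.7, 448, 157 and 191, with replicate 2 far above the rest.

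Among all leading probe sets the largest differences were those of genes of nucleotide supply. Rrm2, the small subunit of ribonucleotide reductase and the one made in S phase, had 3835, 3633, 4779 and 4843 on the ASC arrays, against 184, 360.2, 269 and 198 on the QSC arrays and 118, 112, 108 and 80.3 on the NMC arrays on its leading probe set. The groups did not overlap, and ASC was higher by 4.04 ± 0.21 (adjusted p = 9.4e-09) than QSC and by 5.17 ± 0.21 (adjusted p = 5.3e-10) than NMC. That probe set's name ends in x_at, the array maker's mark for probes that may also match other transcripts. The other 2 Rrm2 probe sets gave 5.82 ± 0.25 and 4.94 ± 0.20 for ASC over QSC, with QSC signals of 25.9 to 71.5 and 31.4 to 83.0. For QSC over NMC the leading set was called (1.13 ± 0.21, adjusted p = 0.0011) and the other 2 were not (0.20 and 0.40, adjusted p = 0.58 and 0.16).

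Tk1, the cytosolic thymidine kinase of the salvage pathway, had 1347, 1447, 1169 and 1250.3 on the ASC arrays, against 22.1, 64.2, 45.7 and 62.0 on the QSC arrays and 40.2, 36.2, 43.0 and 25.1 on the NMC arrays. ASC arrays were uniformly high and QSC and NMC overlapped near the bottom of the scale, with 4.44 ± 0.23 (adjusted p = 8.2e-09) for ASC over QSC. Rrm1, the large reductase subunit, was higher in ASC by 2.81 ± 0.16 (adjusted p = 2.6e-08) and Dut, which removes dUTP, by 2.80 ± 0.19 (adjusted p = 1.1e-07). Tyms, thymidylate synthase, could be measured only by dim probe sets, and a further one that the annotation gives to several genes was left out. The leading one had 24.5, 17.6, 26.5 and 26.7 in ASC, against 12.5, 6.55, 12.9 and 9.55 in QSC and 2.82, 1.3, 0.744 and 7.19 in NMC. Its difference was 0.62 ± 0.15 (adjusted p = 0.0045) for ASC over QSC, whereas another was called lower in ASC (-0.52, adjusted p = 0.047) at signals of at most 1.32 in ASC and 19.1 in QSC. The mean of the 3 probe sets was -0.08 (adjusted p = 0.70), so that no direction is given for Tyms as a gene.

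Between the 2 groups taken directly after the sort, 16 of the 39 leading probe sets were called higher in QSC than in NMC, or 41.0%, against 19.1% of the leading probe sets of every gene. By step these were 3 of 6 licensing genes, 5 of 9 helicase genes, 2 of 8 primase and polymerase genes, 3 of 6 clamp genes, 1 of 3 single-strand binding genes, 0 of 2 fragment joining genes and 2 of 5 nucleotide genes. The share of the primase and polymerase genes lay near that of every gene. Of the nucleotide genes, Rrm2 was called on its leading probe set but not on the other 2 (0.20 and 0.40). Its call was kept with the probe sets of each gene averaged. That of Tyms, dim on all its probe sets, was then lost (0.27, adjusted p = 0.21). The differences were largest for Mcm7 (1.76), Cdt1 (1.68), Rfc5 (1.49), Gins1 (1.40) and Rrm2 (1.13). Of the 39, 7 had all QSC arrays above all NMC arrays, a share near the 14.5% of all probe sets. In 1 (Pola2) all QSC arrays lay below all NMC arrays, as in 2721 of all 20380 probe sets. Cdc6 ran the other way, at -0.51 ± 0.19 (adjusted p = 0.057). Where a gene had several probe sets, all had the same call for 13 of 22 genes in this comparison, and for 14 in each of the others. Further probe sets of Prim1, Mcm6, Mcm10 and Mcm3 were called higher in QSC (0.84, 0.81, 0.70 and 0.60) where the leading ones were not, and a further one of Rfc3 was not called (0.31). In the ASC comparisons the same held for dim probe sets of Rfc1 and Dut (-0.15 and -0.12 against QSC). Rrm1, Tk1 and Dut, among the largest in ASC, differed by 0.12 ± 0.17, 0.27 ± 0.23 and 0.27 ± 0.20 between QSC and NMC and were not called.

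Of the 16 calls 10 were kept whichever single array was left out. Mcm2 was lost without QSC replicate 3 or 4 or NMC replicate 2, 3 or 4 (adjusted p = 0.053 to 0.089), and Rpa1 without QSC replicate 2 or 3 or NMC replicate 3 or 4 (0.064 to 0.12). Orc2 was lost without NMC replicate 1 (0.077), as were Pole (0.086) and Rfc3 (0.061), the last also without QSC replicate 4 (0.065). Tyms was lost without QSC replicate 3 (0.054) or NMC replicate 2 (0.050). Leaving out 1 array added 8 genes: Lig1 and Tk1 without QSC replicate 1 (0.049 and 0.034), Mcm10, Pold2 and Pcna without QSC replicate 3 (0.024, 0.023 and 0.050) and Cdc45 without NMC replicate 1 (0.045). Pola2 was added as lower in QSC without QSC replicate 2 or ASC replicate 2 (0.034 and 0.045), and Cdc6 without NMC replicate 3 or ASC replicate 1 (0.0083 and 0.045). With all arrays and the replicate number as a block, Orc6, Mcm2, Mcm4, Mcm5, Rfc3 and Rpa1 were not called (0.054 to 0.13).

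Other measures differed between these groups as well. All 6 satellite cell markers were higher in QSC than in NMC, with summed signals of 1074 to 1623 in ASC, 11320 to 14250 in QSC and 627 to 907 in NMC. Endothelial markers (6 of 6 lower in QSC than in NMC) summed to 110.4 to 143.7 in ASC, 1144 to 1741 in QSC and 7042 to 8390 in NMC, and fibroblast markers (4 of 5 lower) to 1135 to 1343, 6451 to 14590 and 23350 to 44030. Leukocyte markers summed to 44.6 to 65.7, 103.3 to 447.7 and 180.6 to 319.0, with no call between QSC and NMC. Against QSC, ASC was lower for 6 of 6 satellite, 6 of 6 endothelial, 5 of 5 fibroblast and 3 of 5 leukocyte markers and higher for 2 of 3 myoblast markers, which summed to 6474 to 9779, 2484 to 3914 and 204 to 445. Mature fibre markers summed to 613 to 7250 in ASC, 1527 to 5162 in QSC and 5900 to 19420 in NMC, with 2 of 5 lower in ASC than in QSC and 3 of 5 lower in QSC than in NMC. No marker was at 0, but Pecam1 and Ptprc were at most 8.60 and 8.86 in ASC. The ratio of 3′ to 5′ Gapdh signal, a sign of RNA quality and amplification, was 1.75 ± 0.41 in ASC, 4.02 ± 0.97 in QSC and 3.87 ± 0.92 in NMC (SD, n = 4 each). Of the defining markers, Pax7 had 61.8 to 125 in ASC, 640.2 to 1899 in QSC and at most 6.66 in NMC. Myod1 had 3305 to 5829 in ASC, 813 to 1580 in QSC and at most 40.9 in NMC, so QSC was not without its signal. Myog had 369 to 4532 in ASC, 302 to 611 in QSC and at most 90.4 in NMC. The part of other cells, RNA quality and culture in the differences of the replication genes was not tested.

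The summed signal of the 39 leading probe sets was 36645, 35336, 54325 and 52668 on ASC replicates 1 to 4, 9489, 14546, 12377 and 12496 on QSC replicates 1 to 4, and 7560 to 8604 on NMC arrays. Within ASC the small-sample arrays held the lowest value for 35 of the 39 genes and the two-cycle arrays the highest for 35, beside 41.1% and 39.4% of all probe sets. Myog, a gene of differentiating myoblasts, had 4532 and 1775 on the small-sample ASC arrays and 443.5 and 368.9 on the two-cycle ones, and summed mature fibre markers were 6881 and 7250 against 613 and 653. The 3′ to 5′ Gapdh ratio was 1.40 and 1.40 on the small-sample ASC arrays and 2.14 and 2.07 on the two-cycle ones. Within QSC, replicate 1 was the lowest for 27 of 39 genes (19.5% of all probe sets) and replicate 2 the highest for 22 (35.4%), although both had the same kit. QSC replicate 2 also had the lowest fibroblast marker sum, 6451 against 9175 to 14590 on the other QSC arrays, and a Pdgfra signal of 21.9 against 187 to 227. Whether these bear on the replication genes was not tested.

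**Figure D4:**
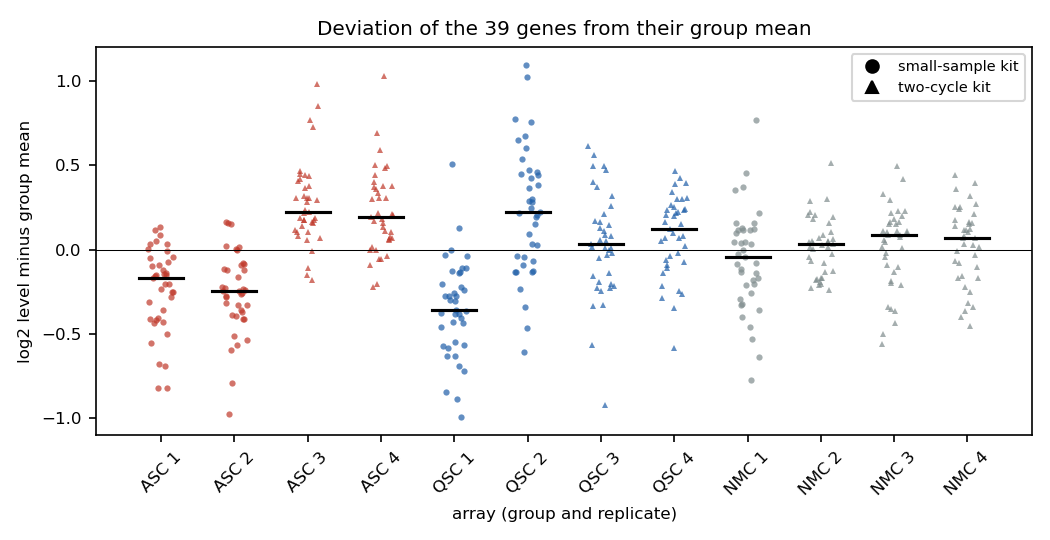
Log2 level of each of 39 replication genes (leading probe set) on each array minus the mean of that gene over the 4 arrays of its group, with black bars for the median over genes, circles for the small-sample kit and triangles for the two-cycle kit. ASC replicates 1 and 2 (medians -0.17 and -0.25) lie below ASC replicates 3 and 4 (0.22 and 0.19), and QSC replicate 1 (-0.36) lies below QSC replicate 2 (0.22).

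Taken within each kit, the ASC minus QSC difference was positive in both kits for all 39 leading probe sets. The kits go with different samples (replicates 1 and 2 against 3 and 4), so kit and sample cannot be told apart here. The median over the 71 member probe sets was 1.54 on small-sample arrays and 1.73 on two-cycle arrays, against -0.18 and -0.18 over all probe sets. For 28 of the 39 genes it was larger with the two-cycle kit, which was so for 50.1% of all probe sets. On leading probe sets Mcm10 differed by 1.93 and 3.43, Fen1 by 1.62 and 3.23, Mcm6 by 1.54 and 2.92 and Pcna by 0.68 and 1.79, small-sample kit first. The second probe sets of Fen1 and Mcm6 differed little between the arrays of the 2 kits, at 2.78 and 2.81 and at 1.57 and 1.74. The dim second one of Mcm10 had -0.45 and -0.46. On small-sample arrays alone Orc1, Mcm7, Pcna, Rfc2, Lig1 and Tyms were not called (0.80, 1.05, 0.68, 0.45, 1.501 and 0.56, adjusted p = 0.057 to 0.16). When the difference between kits was itself tested, 0 of the 71 member probe sets were called (limma, 8 at an unadjusted p under 0.05), beside 1.12% of all probe sets. The nearest was Mcm10 (-1.50 ± 0.31, adjusted p = 0.051), followed by Mcm6 (adjusted p = 0.091). Without QSC replicate 1 this count was 4, and it was 1 without QSC replicate 4.

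Of 45 other genes of the pathway, 35 had a probe set, and 26 of their leading probe sets were higher in ASC than in QSC, 3 lower and 6 not called, with a median of 1.02. Of the leading probe sets of every gene, 20.9% were higher in that comparison, 22.5% in ASC than in NMC and 19.1% in QSC than in NMC. The shares called lower were 33.1%, 29.8% and 18.3% in the same order. The smallest adjusted p belonged to Dbf4, the activator of the Cdc7 kinase that fires licensed origins, with 778, 831, 853 and 723 on the ASC arrays, against 57.2, 86.8, 73.6 and 73.4 on the QSC arrays and 61.6, 42.4, 37.4 and 61.5 on the NMC arrays. The ASC arrays were far above both other groups, by 3.22 ± 0.17 (adjusted p = 8.5e-09) over QSC. Pclaf, a PCNA-binding factor, Asf1b, a histone chaperone, and Wdhd1, which ties polymerase alpha to the helicase, followed with 3.12 ± 0.25, 2.64 ± 0.22 and 2.14 ± 0.14. Top2a, the topoisomerase that untangles copied DNA, and Tipin, of the fork protection complex, exceeded NMC by 4.35 ± 0.27 and 2.04 ± 0.12 in ASC and by 1.46 ± 0.27 and 0.65 ± 0.12 in QSC. Over the list, 27 leading probe sets were higher and 5 lower in ASC than in NMC, and 11 (31.4%) higher and 3 lower in QSC than in NMC. Further probe sets of Dbf4 and Top2a were not called in any comparison.

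The 3 lower genes included the counterparts of 2 members that act outside S phase. Rrm2b, the reductase subunit induced by p53 that serves repair and resting cells, had 169, 179, 117 and 104 on the ASC arrays, against 193, 212, 364 and 249.6 on the QSC arrays and 286, 254, 229 and 247 on the NMC arrays. It was lower in ASC, with a difference of -0.77 ± 0.21 (adjusted p = 0.0085) from QSC and -0.82 ± 0.22 (adjusted p = 0.0064) from NMC, while QSC and NMC overlapped. Tk2, the mitochondrial thymidine kinase, had 33.8, 46.8, 36.1 and 39.8 on the ASC arrays, against 64.4, 47.9, 55.8 and 63.0 on the QSC arrays and 87.0, 80.9, 73.2 and 76.9 on the NMC arrays, so that ASC lay below both other groups. Its differences were -0.43 ± 0.14 (adjusted p = 0.018) from QSC, -0.82 ± 0.14 (adjusted p = 2.4e-04) from NMC and -0.39 ± 0.14 (adjusted p = 0.045) between QSC and NMC. Pold4, the smallest subunit of polymerase delta, was the other lower gene, at -1.06 ± 0.25 (adjusted p = 0.0034), with 135, 115, 54.7 and 56.5 in ASC against 278, 173, 114 and 241 in QSC, where QSC replicate 3 lay below 2 ASC arrays. Further probe sets of Orc3, Cdc7, Pole3 and Samhd1 were also called lower in ASC than in QSC (-1.01, -0.63, -0.69 and -1.37), against the leading probe sets of the same genes (0.57, 1.32, 1.15 and 0.68).

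**Figure D5:**
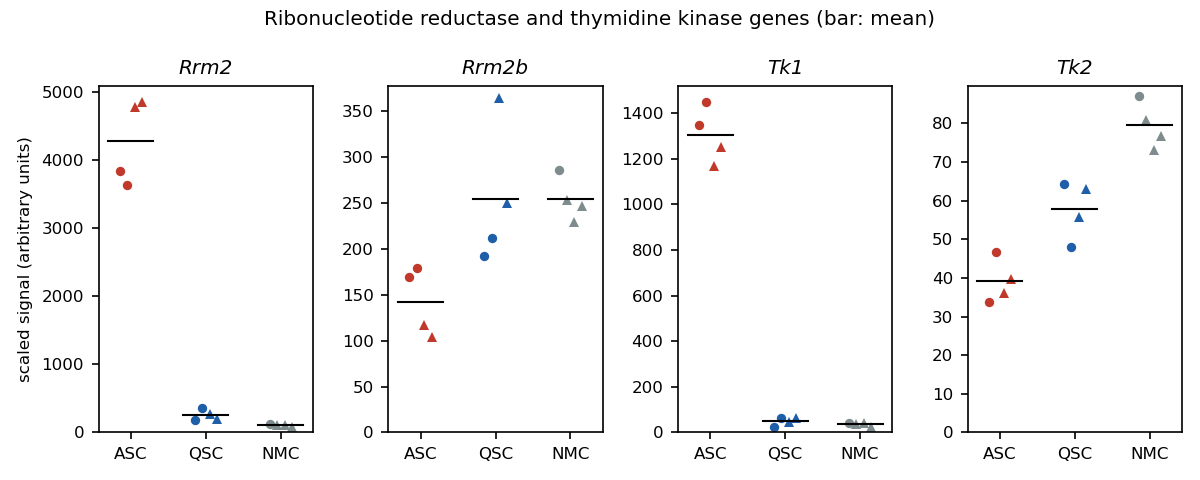
Scaled signal (arbitrary units, linear axes from 0 that differ between panels) of the leading probe sets of Rrm2, Rrm2b, Tk1 and Tk2 on each array of ASC, QSC and NMC, with bars for the mean, circles for the small-sample kit and triangles for the two-cycle kit. Rrm2 and Tk1 are highest in ASC, at 3633 to 4843 and 1169 to 1447, and Rrm2b and Tk2 lowest there, at 104 to 179 and 33.8 to 46.8.

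Samhd1, which degrades deoxynucleotides and so opposes the reductase, had 178, 161, 351 and 344 on the ASC arrays, against 142, 95.3, 197 and 171 on the QSC arrays and 313, 461, 366 and 472 on the NMC arrays. The 2 two-cycle ASC arrays lay within the NMC range, and all QSC arrays below it. Differences from NMC were -0.50 ± 0.17 (adjusted p = 0.024) for ASC and -1.18 ± 0.17 (adjusted p = 1.3e-04) for QSC, and Samhd1 was higher in ASC than in QSC by 0.68 ± 0.16 (adjusted p = 0.0037). All 4 of its probe sets were lower in ASC than in NMC, at -2.27 to -0.50, and 3 of 4 were lower in QSC. Timeless, the partner of Tipin, was lower than in NMC on its leading probe set, at -0.68 ± 0.24 (adjusted p = 0.030) in ASC and -1.12 ± 0.24 (adjusted p = 0.0026) in QSC, but its second probe set was higher in ASC by 2.31 ± 0.32 (adjusted p = 4.6e-05). Pold4, Rrm2b, Tk2 and the Orc3 probe set above were the rest of the lower calls of ASC against NMC (-0.98, -0.82, -0.82 and -0.66). For QSC over NMC the smallest adjusted p belonged to a second probe set of Pold3, a polymerase delta subunit, at 1.25 ± 0.14 (adjusted p = 1.8e-05), and a probe set of Dtymk, thymidylate kinase, followed Top2a and Tipin at 0.64 ± 0.14 (adjusted p = 0.0024).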

How the data were processed

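Biotin-labelled RNA of 12 samples was measured on Affymetrix Mouse 430A arrays, 1 per sample. The deposited values are probe set intensity on a linear scale, credited to MAS5 per the submitters' processing notes, with version and settings not given in the sources used here. MAS5 corrects each perfect match probe by its mismatch partner, 1 array at a time; detection calls were not used. Deposited 2% trimmed means of 160 to 502 showed that arrays were not on a common level, so each was scaled to 235 and transformed to log2(signal + 14.7), 1/16 of that mean, which understates fold changes of dim probe sets.

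All 20380 probe sets with 1 annotated gene entered lmFit and eBayes of limma 3.58.1 (R 4.3.3), with terms for group and labelling kit, 8 residual degrees of freedom and no filter on low signal. Symbols of 20351 were matched by Entrez ID, and left out were 64 controls, 1555 probe sets without a listed gene and 691 that list several. Calls are at a Benjamini-Hochberg adjusted p under 0.05 over all probe sets; precision is limited by the number of arrays. The scripts were tested on simulated data. Named genes are all members, each with its leading probe set and others where sign or call differ, and from the other replication genes the 4 called probe sets with the smallest adjusted p per comparison and direction, plus calls against the majority.

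The members and lists were chosen with earlier results of these data known. Replicate numbers come from the sample titles. Same-numbered ASC and QSC arrays share a kit and deviated together (r = 0.27, 0.17, 0.16 and 0.26 over probe sets). The replicate block is therefore given beside the ASC against QSC counts, the QSC against NMC calls and the alternatives. With the kit's mean removed r was -0.13 to -0.39. Removing group and kit means itself pulls r of same-kit arrays below 0, so a pairing beyond the shared kit cannot be judged from it. For ASC against NMC r was 0.37, 0.18 and 0.28 for same-kit numbers and -0.13 for replicate 2, where the kits differ. For QSC against NMC these were 0.34, 0.02 and 0.24, and -0.33. Alternatives covered scaling, pseudocount, filter, probe set choice, kit, samples, block, variance model and each array left out.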

Additional observations from a re-analysis of the deposited data

Results flagged for a closer look

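For 8 of 117 sets of 4 arrays (39 genes in 3 groups), 1 array lay far from the other 3, by a gap that passed the 95% critical value of Dixon's test for 4 values. Chance flags about 5% of such sets. NMC replicate 1, the only NMC array with the small-sample kit, accounted for 4: Mcm6 at 201.3 (others 323.8 to 348.4), Mcm7 at 428.5 (541.8 to 556.3), Rfc4 at 37.9 (63.4 to 69.8) and, as the only high one of these, Mcm10 at 67.2 (22.9 to 27.4). QSC replicate 1 was low for Mcm7, at 1097 (1832 to 1944), and for Pole, at 15.8 (56.9 to 68.0). QSC replicate 2 was high for Pold1, at 361.3 (183.5 to 203.1), and for Fen1, at 580.0 (316.2 to 341.9). All values printed here are scaled signals of leading probe sets and not the log2 values tested.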

How the results depend on the processing

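Of 27 alternatives, the fit on the 5 small-sample arrays alone holds the fewest samples, with 2 QSC arrays against 1 NMC array. In the other 26, 36 of 39 leading probe sets kept their call for ASC against QSC, 37 of 39 for ASC against NMC and 4 of the 16 called for QSC against NMC (Cdt1, Mcm7, Rfc5 and Rrm2). With the small-sample arrays alone 8, 7 and 16 calls were lost, and those 4 genes differed by 1.85, 1.74, 1.55 and 1.05 there; the cause of other changes was not tested except where said. The small-sample arrays alone gave 1 higher probe set between QSC and NMC (2.52% of all probe sets), a median of 2.16 for ASC against NMC and 0 lower calls in either ASC comparison. Unscaled signals gave 12 higher, 2 lower and a median of 0.14 for QSC against NMC, a median of 1.89 and 1 lower for ASC against QSC, and 2 lower for ASC against NMC. Centring on array medians moved the median of all probe sets to 0.15 and 0.38 in the ASC comparisons, with member medians of 2.08 (QSC) and 2.91 (NMC) and 0 lower. Quantile normalization gave 0 lower calls in both ASC comparisons and 1 for QSC against NMC. The larger pseudocount gave a median of 1.96 for ASC against NMC and 1 lower for ASC against QSC, and the smaller one 2 lower for ASC against NMC. The signal filter, which leaves 60 member probe sets, gave 0 lower in both ASC comparisons and 2 for QSC against NMC. Because it takes the mean over all arrays, ASC included, it favours probe sets high in ASC. Its 0 lower calls are therefore no separate check. One probe set per gene leaves 39 values, of which 39, 39 and 16 were higher for ASC against QSC, ASC against NMC and QSC against NMC, with 0 lower in each. Averaging the probe sets of each gene gave 37, 37 and 19 higher and 0, 0 and 1 lower, and turned Tyms to -0.0796 for ASC against QSC. Fits on only the groups compared gave 1, 2 and 1 lower. The lower count of ASC against QSC was 1 with no kit term, with the replicate block and with two-cycle arrays alone, which gave 0 lower for ASC against NMC.

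Leaving out 1 array gave 60 to 62 higher, 1 to 3 lower and a median of 1.53 to 1.71 for ASC against QSC. For ASC against NMC it gave 61 to 62 higher, 0 to 2 lower and 2.36 to 2.54, and for QSC against NMC 24 to 34 higher, 0 to 1 lower and 0.36 to 0.56. The kit difference was called for 0 to 4 member probe sets without 1 array, for 3 with the larger pseudocount and for 2 with the signal filter. With the replicate block 61, 61 and 20 were higher, and for QSC against NMC Orc6, Mcm2, Mcm4, Mcm5, Rfc3 and Rpa1 were not called (adjusted p = 0.054 to 0.13). Signals near the bottom of the scale, as for Tyms and Orc1, limit what can be said of dim probe sets.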

Other observations

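Maintenance of DNA methylation is coupled to the replication fork, and its genes, named here after their values were seen, were high in activated cells. Uhrf1, which recruits the methyltransferase to newly copied DNA, had scaled signals of 701, 534, 592 and 679 on the ASC arrays, against 25.7, 114, 23.7 and 30.1 on the QSC arrays and 20.0, 18.3, 1.12 and 14.6 on the NMC arrays. The ASC arrays were far above the rest, by 3.54 ± 0.33 (adjusted p = 1.7e-06) over QSC, and QSC replicate 2 was the highest QSC array. Dnmt1, the maintenance methyltransferase, was higher in ASC than in QSC by 1.87 ± 0.17 (adjusted p = 1.6e-06) and in ASC than in NMC by 1.85 ± 0.18 (adjusted p = 1.5e-06), with no call between QSC and NMC (-0.02 ± 0.18, adjusted p = 0.94).

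The checkpoint clamp that resembles PCNA, made of Rad9a, Rad1 and Hus1 and loaded by Rad17, had calls for some members and not for others. Hus1 was higher in ASC than in QSC by 1.59 ± 0.22 (adjusted p = 4.8e-05), with 352, 347, 196 and 196 in ASC against 57.3, 71.9, 91.3 and 94.1 in QSC, here with the small-sample ASC arrays the highest. Its other probe set, dimmer, was not called (-0.16 ± 0.20, adjusted p = 0.53). Rad1 was higher by 1.02 ± 0.23 (adjusted p = 0.0024) and Rad17 by 0.48 ± 0.18 (adjusted p = 0.040), while Rad9a had a difference of -0.01 ± 0.15 (adjusted p = 0.96). Whether these genes differ from one another in their change was not tested.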
